A study of Mus musculus with 9 samples.

Results

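The genes described here are 10 markers of epithelium, listed by name: the adhesion and junction genes Epcam, Cdh1 and Cldn7, the keratins Krt5, Krt7, Krt8, Krt14, Krt18 and Krt19, and the transcription factor gene Elf5. They are 10 of the 35071 genes to which the deposited transcripts were summed, and all 10 had a count in some library. RNA was sequenced from frozen subcutaneous fat of C57BL/6 mice aged 24 weeks, in 9 libraries. WT, Hete KO and Homo KO gave 3 libraries each. The knockout is of Ago1, an Argonaute protein of microRNA silencing, in endothelial cells, given in the labels as Hete KO and Homo KO, with WT littermates, and the study asked which molecular changes go with a metabolic phenotype. The labels name neither the sex, the exact depot, the Cre driver nor a sequencing batch, and they do not say whether each library came from 1 mouse, so p-values measure the spread between these libraries.

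Epithelial cells are held together by E-cadherin (Cdh1), by EpCAM and, at tight junctions, by claudins such as Cldn7. Their cytoskeleton is built from keratin filaments, in which a type I keratin always pairs with a type II keratin: Krt18 with Krt8 in simple epithelium such as that of ducts and hepatocytes, and Krt14 with Krt5 in the basal layer of skin and glands. Krt7 (type II) and Krt19 (type I) are typical of ducts, and Elf5 is known as a factor of the secretory lineage of the mammary gland. Fat cells and blood vessels are not built from epithelium, so in a fat pad these genes are known mainly from included gland, skin or neighbouring tissue. Because whole tissue was sequenced, fewer epithelial cells and less RNA per cell cannot be told apart.

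The libraries held between 20843427 and 28252001 estimated counts. A floor of 3 counts, taken in place of a count of 0, stood for 0.107 to 0.146 CPM, the count scaled to library size. This floor and all counting intervals cover counting error only. Fat cell markers were abundant, as the tissue label says: 10 adipocyte genes summed to between 15938 and 29022 TPM, a level scaled to transcript length and library size, against 4.12 to 12.8 TPM for the 10 epithelial genes. Ago1 was at 26.0, 18.8 and 15.8 TPM in WT 1, 2 and 3, at 17.6, 18.4 and 18.0 in Hete KO 1, 2 and 3, and at 20.4, 17.9 and 7.64 in Homo KO 1, 2 and 3. Ago1 did not pass edgeR's test in Homo KO against WT (log2 fold change -0.43, adjusted p = 0.441). Ago1 of all cells was measured, so this does not check a knockout in endothelial cells. Some libraries also held transcripts of other tissues. The sum of 12 skeletal muscle genes was 8755, 7723 and 21349 TPM in WT 1, WT 2 and Hete KO 2 and between 29.6 and 1011 TPM elsewhere, and the sum of 10 liver genes was 1019 and 869 TPM in WT 2 and WT 3 and between 33.2 and 84.9 TPM elsewhere. Genes of the Y chromosome were present in all 9 libraries (Ddx3y between 38.2 and 60.9 TPM).

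On the TPM scale, which corrects for transcript length, Elf5 stood highest of the 10 with a mean of 2.75 TPM over the 9 libraries, followed by Krt7 with 1.95 TPM. Krt18 (0.945), Krt19 (0.755), Cldn7 (0.430), Cdh1 (0.396), Krt8 (0.254) and Epcam (0.204) had means below 1 TPM, and Krt5 (0.0406) and Krt14 (0.00495) were close to 0. Elf5, Krt7, Krt19 and Cdh1 had counts in all 9 libraries, Krt18 and Cldn7 in 7, Epcam in 5, Krt8 in 4, Krt5 in 2 and Krt14 in 1. No 2 neighbours in this order differed by more than the larger of their SDs across libraries, and 2 kinds of pattern stood side by side. Elf5 and Krt7 were even, within 2.67 and 2.03 times from the lowest to the highest library, while Krt18, Krt8 and Epcam were at or near 0 in most libraries and above 1 TPM in 1 or a few.

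**Figure D1:**
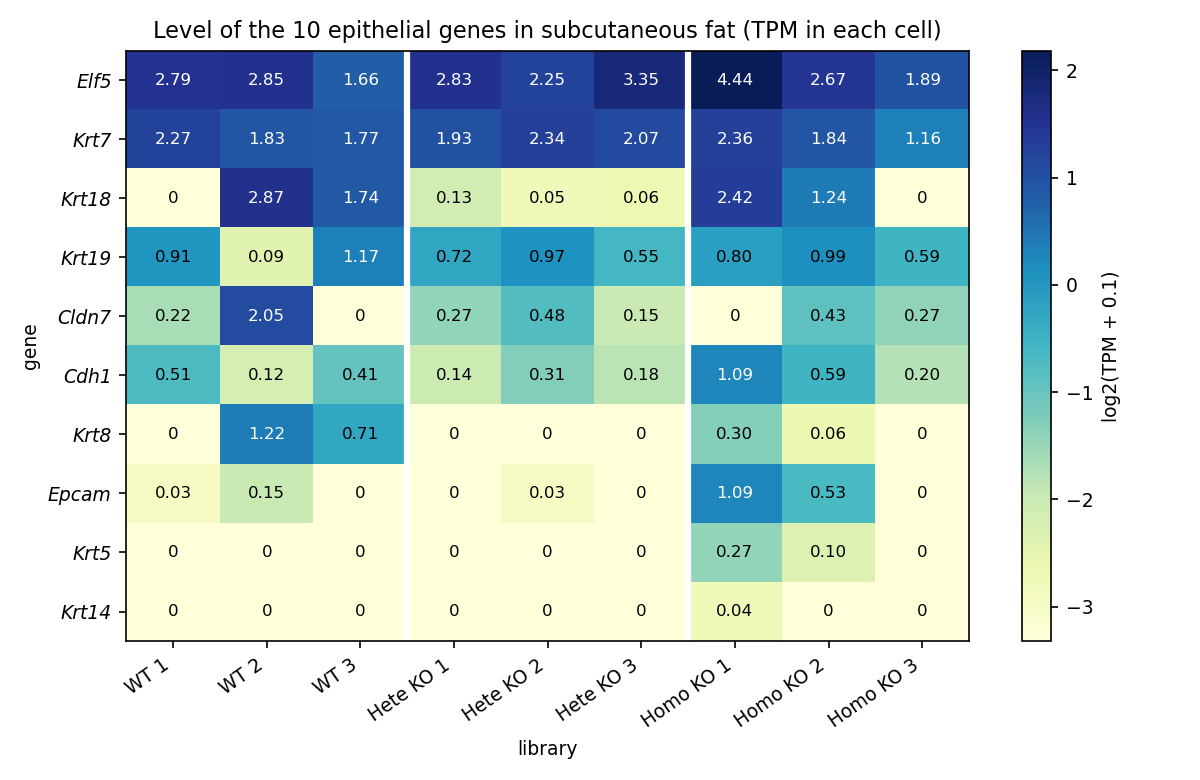
Level in TPM (number in each cell) of the 10 epithelial genes (rows, by mean level) in the 9 libraries (columns, white lines between groups), with colour on a log2(TPM + 0.1) scale. Elf5 and Krt7 are filled in every library, Krt18 and Krt8 stand out in WT 2, WT 3, Homo KO 1 and Homo KO 2, and Epcam, Krt5 and Krt14 have their highest values in Homo KO 1.

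Epcam (chr17:87635979-87651129, plus strand, GRCm38) encodes the membrane glycoprotein by which epithelial cells are commonly sorted. Its estimated counts were 1, 5 and 0 in the WT libraries, 0, 1 and 0 in those of Hete KO, but 30, 15 and 0 in Homo KO 1, 2 and 3, or 1.09 and 0.532 TPM in Homo KO 1 and 2 and at most 0.149 TPM elsewhere. The 2 high libraries were both of the Homo KO group and the third had none, so the groups overlapped. The 95% exact Poisson intervals, 20.2 to 42.8 counts in Homo KO 1 and 8.40 to 24.7 in Homo KO 2, lay above the upper limit of 5.57 for Hete KO 2, while that of WT 2 (1.62 to 11.7) overlapped the second. Epcam failed the filter on low counts. In the edgeR fit without that filter its log2 fold change in Homo KO against WT was 3.02, with an adjusted p of 0.395, and DESeq2 gave 0.345. None of the 31-base words of its main transcript occurs in a transcript of another gene.

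The promoters of Epcam and Krt18, seen together in Homo KO 1 and 2, and of the evenly measured Krt7 are shown for comparison (RefSeq, GRCm38.p6), each ending before the first exon base of the main coding transcript in RefSeq and GENCODE, with capitals marking matches to the E-box CAGGTG, the letters bound by Snail and ZEB repressors of epithelial genes, or to the GC box GGGCGG, on either strand. Epcam is read at chr17:87635729-87635978, Krt18 at chr15:102027966-102028179 and Krt7 at chr15:101412153-101412401, all on the plus strand, the last overlapping an exon of the non-coding Krt7-205.
Epcam: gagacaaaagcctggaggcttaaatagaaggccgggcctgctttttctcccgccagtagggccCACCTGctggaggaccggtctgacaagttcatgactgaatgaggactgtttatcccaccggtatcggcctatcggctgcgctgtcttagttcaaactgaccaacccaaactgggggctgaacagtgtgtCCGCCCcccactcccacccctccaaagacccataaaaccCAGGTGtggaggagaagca
Krt18: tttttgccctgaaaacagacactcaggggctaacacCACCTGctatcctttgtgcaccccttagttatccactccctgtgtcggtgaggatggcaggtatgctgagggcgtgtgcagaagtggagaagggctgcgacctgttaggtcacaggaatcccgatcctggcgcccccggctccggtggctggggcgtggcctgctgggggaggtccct
Krt7: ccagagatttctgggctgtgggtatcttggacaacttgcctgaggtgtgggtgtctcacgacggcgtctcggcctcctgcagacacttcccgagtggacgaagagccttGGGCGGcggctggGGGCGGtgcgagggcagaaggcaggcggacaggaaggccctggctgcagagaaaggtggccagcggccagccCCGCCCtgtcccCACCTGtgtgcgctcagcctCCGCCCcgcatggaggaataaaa

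RefSeq promoter windows were found for 8 of the 10 genes, all but Cdh1 and Krt19. In the 250 bases before the RefSeq start, CAGGTG or its reverse complement was present in 6 of these 8 windows, against 17.22% of 32851 RefSeq windows. The 6 were those of Epcam, Krt5, Krt7, Krt8, Krt18 and Cldn7. GGGCGG was present in 3 of 8 (Epcam, Krt7 and Cldn7), against 32.74%, and TATAAA and the grainyhead-type AACCNGTT in 0 of 8, against 12.37% and 1.79%. No 2 of these matches share bases. The RefSeq start lies inside the span of the main GENCODE transcript by 1518 bases for Krt14, 140 for Krt8 and 36 for Krt18. For Cldn7, Elf5 and Krt7 it does so by 25, 6 and 1 bases. The Krt14 window, the Krt8 match and the Cldn7 GGGCGG match thus lie within those transcripts, and the counts above include them. All are matches of letters in a window and describe no binding.

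Cdh1 (chr8:106603351-106670246, plus strand) encodes E-cadherin, the calcium-dependent adhesion molecule of adherens junctions. It had 35, 9 and 38 counts in the WT libraries, 11, 23 and 11 in those of Hete KO, while it had 69, 39 and 15 in Homo KO 1, 2 and 3. Homo KO 1 was the highest library and Homo KO 2 the next, but Homo KO 3 lay within both other groups. Normalized levels were 1.06 ± 0.607 CPM in WT, 0.637 ± 0.294 CPM in Hete KO and 1.87 ± 1.25 CPM in Homo KO (SD, n = 3 each). The log2 fold change of Cdh1 in Homo KO against Hete KO was 1.54 (SE 0.692), with an unadjusted p of 0.0505 and an adjusted p of 0.899 in edgeR's quasi-likelihood test. Against WT it was 0.81 (SE 0.669, adjusted p = 0.564) in Homo KO and -0.73 (SE 0.692, adjusted p = 0.583) in Hete KO. The estimates moved with single libraries. Without Homo KO 1 that of Homo KO became 0.94 against Hete KO and 0.22 against WT, and without WT 2 it was 0.41 against WT. With each library left out, the 3 values ranged from 0.94 to 1.98, 0.22 to 1.23 and -1.17 to -0.42.

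Cldn7 (chr11:69964779-69967885, plus strand), a claudin of tight junctions and of the basolateral membrane, followed neither Epcam nor Cdh1. It had 17 counts in WT 2 (2.05 TPM) and between 0 and 5 counts in every other library, with 0 in WT 3 and Homo KO 1. Cldn7 did not pass the filter on low counts, and its level thus rested on 1 WT library.

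**Figure D2:**
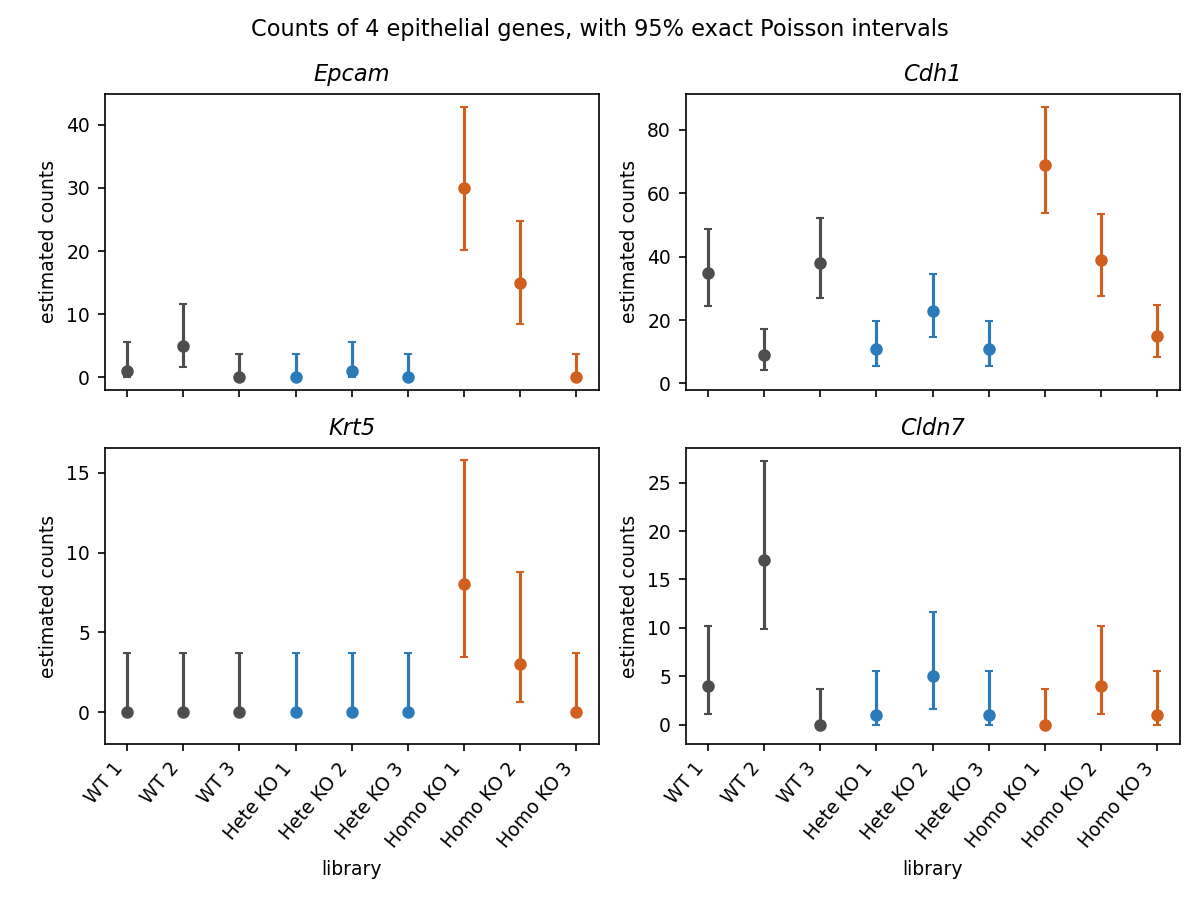
Estimated counts per library (points, with 95% exact Poisson intervals as bars) of Epcam, Cdh1, Krt5 and Cldn7, with libraries on the x axis in grey (WT), blue (Hete KO) and orange (Homo KO). Homo KO 1 is the highest library for Epcam (30 counts), Cdh1 (69) and Krt5 (8) and Homo KO 2 the next, while Homo KO 3 stands with the WT and Hete KO libraries, and Cldn7 is highest in WT 2 with 17 counts.

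Krt8 and Krt18, the filament pair of simple epithelium, lie close together on chromosome 15 (chr15:101996698-102004482, minus strand, and chr15:102028180-102032027, plus strand). Krt18 was at 0, 2.87 and 1.74 TPM in WT 1, 2 and 3, at 0.128, 0.0452 and 0.0555 TPM in Hete KO, and at 2.42, 1.24 and 0 TPM in Homo KO 1, 2 and 3. Krt8 was at 0, 1.22 and 0.707 TPM in WT, at 0 in all 3 Hete KO libraries, and at 0.304, 0.0624 and 0 TPM in Homo KO. Krt8 was found in WT 2, WT 3, Homo KO 1 and Homo KO 2, the 4 libraries with the most Krt18, and WT and Homo KO each had 1 library without a count of either.

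The Hete KO level of Krt18, 0.0673 ± 0.0382 CPM (SD, n = 3), came from 3, 1 and 1 counts, against 1.43 ± 1.32 CPM in WT and 1.04 ± 1.02 CPM in Homo KO. The log2 fold change in Hete KO against WT was -4.27 (SE 1.66), with an unadjusted p of 0.0284 and an adjusted p of 0.177 by edgeR. In Homo KO against Hete KO it was 3.81 (SE 1.67; unadjusted p = 0.0462, adjusted p = 0.899), and in Homo KO against WT -0.46 (SE 1.29, adjusted p = 0.890). No comparison of Krt18 passed, and WT 1 and Homo KO 3 reached below every Hete KO library. For Krt8, summed counts were 66 in WT and 0 in Hete KO. Scaled to library size, WT stood 20.4-fold above a floor of 3 counts over the Hete KO group, and 12.3-fold above it without WT 2. These folds pool libraries, of which WT 1 had 0 counts. They carry no counting error of the WT counts, so they are not lower bounds. Krt8 failed the filter, and without it the adjusted p of Hete KO against WT was 0.116 by edgeR. Without the liver-rich WT 2 and WT 3, WT is left with WT 1, which has 0 counts of both genes. The estimate for Krt18 in Hete KO against WT then becomes 3.79 and in Homo KO against WT 7.60, values set by the prior count of the fit and not by a measured ratio.

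The 2 WT libraries with Krt8 and Krt18 were those with liver transcripts. Alb, the serum albumin gene of hepatocytes, was at 478 and 432 TPM in WT 2 and WT 3 and between 5.24 and 37.4 TPM elsewhere, and all 10 liver genes had counts. Homo KO 1 and 2 had no such level: their liver sums of 66.4 and 65.4 TPM lay within the 33.2 to 84.9 TPM of the libraries with little or no Krt18. The part of liver RNA in the WT levels was not tested. Krt8 made up 37.5% of the Krt8 and Krt18 counts in WT 2 (95% exact Clopper-Pearson interval 28.2 to 47.5%, 104 counts) and 36.5% in WT 3 (25.6 to 48.5%, 74 counts). In Homo KO 1 the share was 15.1% (6.75 to 27.6%, 53 counts) and in Homo KO 2 it was 8% (0.984 to 26.0%, 25 counts). The intervals of both lay below that of WT 2 and overlapped that of WT 3. Both genes share sequence with other loci, which bears on the split of counts: 36.0% of the 31-base words of the main Krt8 transcript also occur in other genes, chiefly the pseudogene Krt8-ps, and 11.4% of those of Krt18 do. Krt8-ps rounded to 0 counts in every library, with 0.0295 TPM in Homo KO 2, where the share of Krt8 was lowest, and 0 TPM elsewhere.

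**Figure D3:**
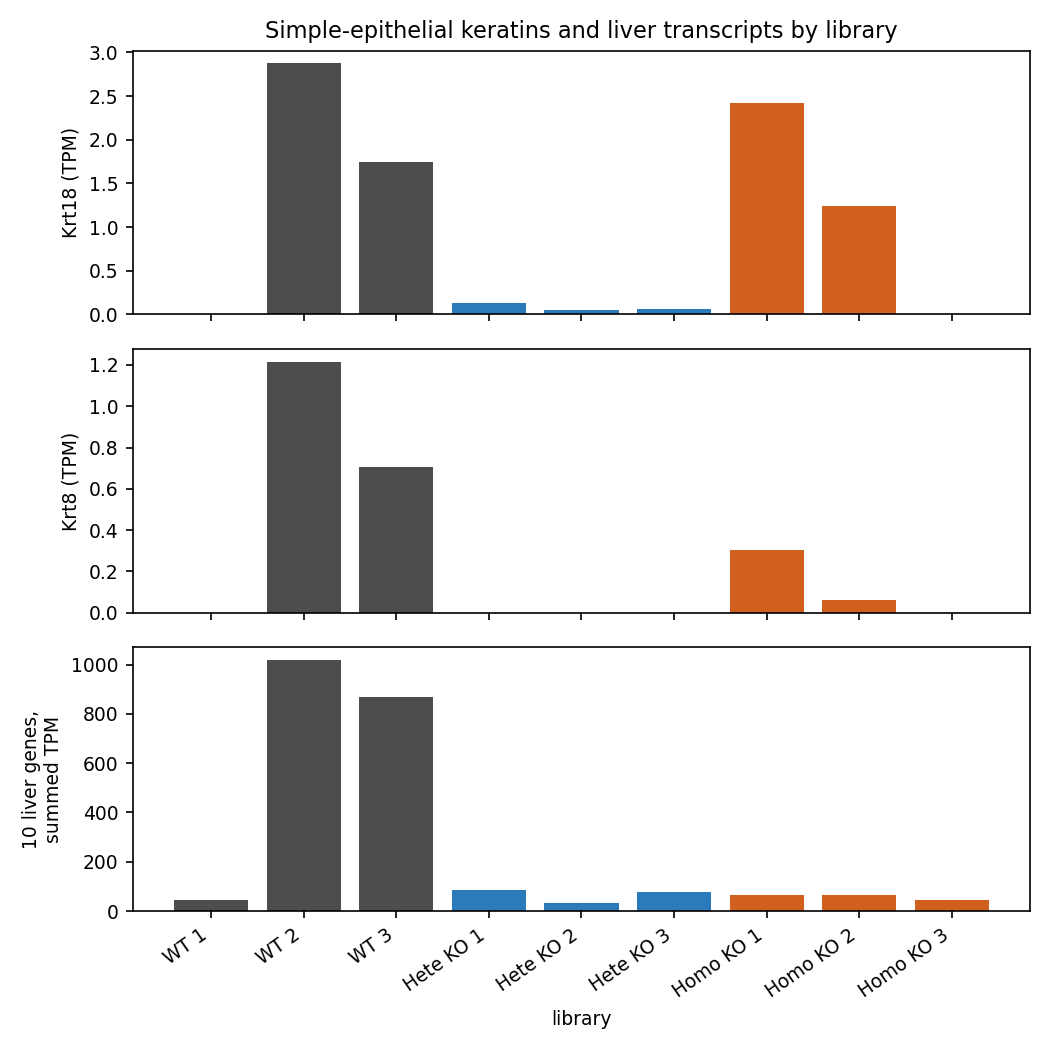
TPM of Krt18 (top) and Krt8 (middle) and summed TPM of 10 liver genes (bottom) in each library, with bars in grey (WT), blue (Hete KO) and orange (Homo KO) and each axis starting at 0. WT 2 and WT 3 are high in all 3 panels, while Homo KO 1 and Homo KO 2 hold Krt18 at 2.42 and 1.24 TPM with liver sums of 66.4 and 65.4 TPM.

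Krt5 and Krt14 form the filaments of basal cells in skin, in glands and in the myoepithelium. Krt5 (chr15:101707070-101712898, minus strand) had 8 counts in Homo KO 1, 3 in Homo KO 2 and 0 in the other 7 libraries. Over a group and scaled to library size, the 11 counts in Homo KO stood 4.18-fold above a floor of 3 counts over WT and 3.87-fold above that floor over Hete KO. These folds carry no counting error of the 11 counts, so they are not lower bounds. Of the 11 counts, 8 came from Homo KO 1, and without that library the 3 left were at the floor and gave no fold. Krt5 failed the filter, and without it edgeR gave an adjusted p of 0.364 in Homo KO against WT. Krt14 (chr11:100203162-100207548, minus strand) had 1 count in all, in Homo KO 1, so that basal keratin was close to the limit of detection even where Krt5 was seen. Of the 31-base words, 15.8% of the Krt5 transcript are shared, most often with Krt6a, and 29.1% of the main Krt14 transcript, most often with Krt16.

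Krt7, a type II keratin of ducts (chr15:101411043-101430313, plus strand), was the most even keratin of the 6. It stood at 2.27, 1.83 and 1.77 TPM in the WT libraries, 1.93, 2.34 and 2.07 TPM in those of Hete KO and 2.36, 1.84 and 1.16 TPM in Homo KO, with Homo KO 3 the lowest. The groups overlapped on this scale. On the CPM scale the means were 4.79 ± 1.02, 5.51 ± 0.318 and 4.27 ± 0.761 in WT, Hete KO and Homo KO (SD, n = 3), and all Homo KO libraries lay below all Hete KO libraries. Krt7 was the only member without overlap in a comparison, and 11.4% of the tested genes had none in that one (5.73% higher and 5.64% lower in Homo KO). The log2 fold change in Homo KO against Hete KO was -0.37 (SE 0.231), with an adjusted p of 0.936 by edgeR. Most Krt7 counts, 81.7%, were on coding transcripts, and 17.3% were on Krt7-202, annotated as retaining an intron, with 10.4 to 25.5% in single libraries.

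Krt19, the small type I keratin of ductal and simple epithelium (chr11:100140810-100148665, minus strand), had 91 counts in all. It had 8, 1 and 24 counts in the WT libraries, 10, 13 and 5 in those of Hete KO and 11, 7 and 12 in Homo KO, so that the lowest and the highest library were both WT. The level was 0.410 ± 0.413 CPM in WT, 0.387 ± 0.153 CPM in Hete KO and 0.441 ± 0.0941 CPM in Homo KO (SD, n = 3). The log2 fold changes against WT were 0.09 in Homo KO and -0.09 in Hete KO, with adjusted p of 0.969 and 0.965 by edgeR. WT 2, which held the most Krt18 and Krt8, held the least Krt19, and 51.8% of the Krt19 counts were on transcripts annotated as non-coding. Most of these were on Krt19-203, of whose 823 bases 780 lie in the coding sequence of the gene. The split between coding and non-coding Krt19 is thus an assignment by the authors' quantifier.

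Elf5 (chr2:103411688-103450989, plus strand), an ETS factor of mammary alveolar and other secretory cells, was the most abundant of the 10 by TPM. Its levels were 2.79, 2.85 and 1.66 TPM in the WT libraries, 2.83, 2.25 and 3.35 TPM in those of Hete KO and 4.44, 2.67 and 1.89 TPM in Homo KO, and the groups overlapped. The means were 5.16 ± 1.29 CPM in WT, 5.25 ± 0.223 CPM in Hete KO and 4.96 ± 1.40 CPM in Homo KO (SD, n = 3). The log2 fold changes were -0.06, 0.03 and -0.08 in Homo KO against WT, Hete KO against WT and Homo KO against Hete KO, with adjusted p of 0.938, 0.969 and 0.994 by edgeR. Little of this signal came from coding transcripts. Of 1099 Elf5 counts, 92.7% were assigned to the non-coding Elf5-204, with 84.7 to 99.4% in single libraries, and 5.09% to coding transcripts. The coding transcripts had between 0 counts, in WT 2, and 14 counts, in Homo KO 1, and at most 0.684 TPM.

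The bases where these 2 models leave the coding transcript are shown, since they decide what an Elf5 or Krt7 count stands for (GRCm38, plus strand, from the GENCODE M21 transcript sequences). Capitals mark the exon of the coding transcript and lower case the intron that the model retains. The Elf5 bases are exon 4 and its intron at chr2:103442812-103442891, and the Krt7 bases are exon 2 and its intron at chr15:101414141-101414220.
Elf5-204: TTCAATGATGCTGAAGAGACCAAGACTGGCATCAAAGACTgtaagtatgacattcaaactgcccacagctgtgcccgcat
Krt7-202: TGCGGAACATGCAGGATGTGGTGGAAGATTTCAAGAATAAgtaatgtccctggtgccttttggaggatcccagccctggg

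Both introns open with GT, the usual first bases of an intron. Elf5-204 reads on for 2437 bases (chr2:103442852-103445288) and ends there, and 74.7% of its bases lie outside the exons of coding transcripts. Krt7-202 keeps the whole intron of 2040 bases (chr15:101414181-101416220) and then follows the coding exons. Of the 31-base words of Elf5-204, 2.17% occur in other genes, spread over 936 of them. For the main coding Krt7 transcript the share is 3.15%, over 3433 genes, and for Krt7-202 it is 1.87%, over 3505 genes. Only exact matches to annotated transcripts were counted, so the part of repeated sequence was not measured. The files give counts per transcript, so a count on either model is an assignment by the authors' quantifier.

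**Figure D4:**
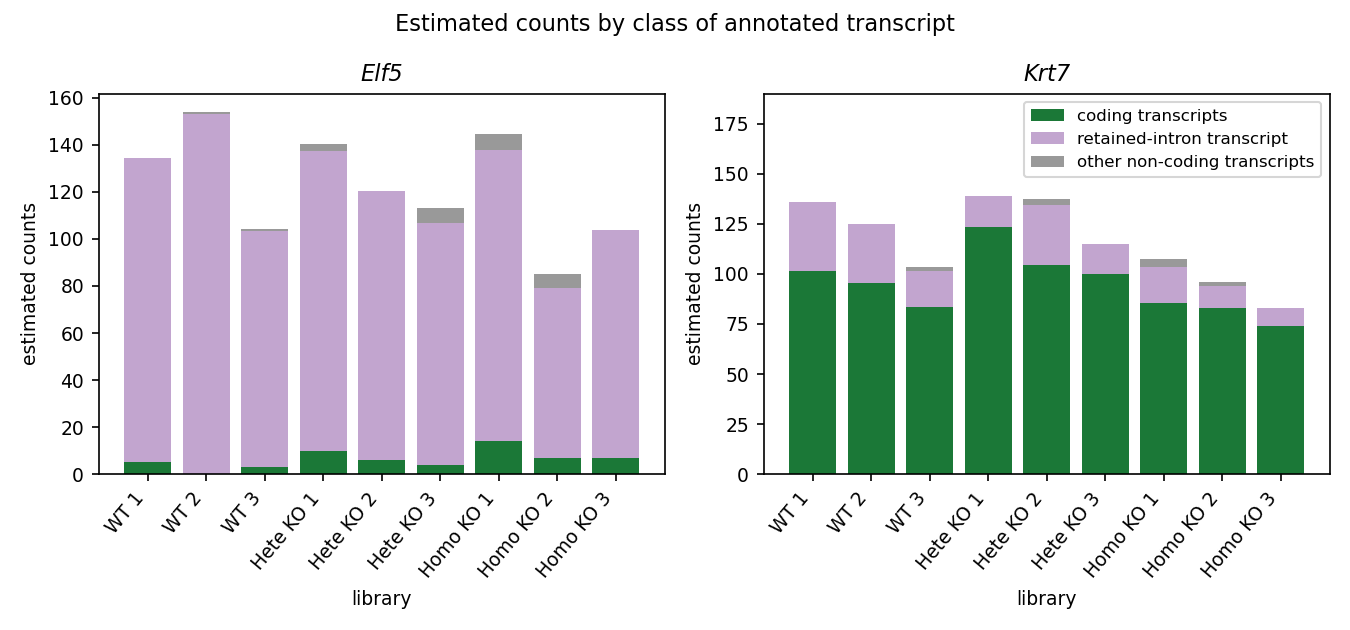
Estimated counts of Elf5 (left) and Krt7 (right) in each library, stacked by class of annotated transcript: coding (green), retaining an intron (purple) and other non-coding (grey). Elf5 bars are almost all purple, with 0 to 14 coding counts per library, while Krt7 bars are mostly green.

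None of the members that could be tested passed the threshold in a comparison of groups. Cdh1, Krt7, Krt18, Krt19 and Elf5 passed the filter on low counts, and Epcam, Krt5, Krt8, Krt14 and Cldn7 did not and are described by their values. In Homo KO against WT, 0 of the 5 were called at an adjusted p of 0.05, where 0% of the 17968 tested genes were called by edgeR. At an unadjusted p under 0.05, 0 of the 5 and 16.4% of the tested genes passed. DESeq2 called 0 of the 7 members to which it gave an adjusted p, beside 3.35% of all genes with one. In Hete KO against WT, 0 of the 5 were called, beside 0.417% of the tested genes (75, of which 27, or 0.15%, were higher and 48, or 0.267%, lower). Krt18 alone was under an unadjusted p of 0.05, beside 21.9% of the tested genes. DESeq2 called 0 of the 4 with an adjusted p (Cdh1, Krt7, Krt18 and Elf5), beside 9.77% of all genes with one. In Homo KO against Hete KO, 0 of the 5 were called, beside 0% of the tested genes. Krt18 was again the only one under an unadjusted p of 0.05, beside 5.44% of the tested genes. DESeq2 called 0 of the 10, beside 0.0158% of all genes with an adjusted p. The median log2 fold change over the 5 was -0.06, -0.09 and 0.18 in these comparisons, against -0.01, 0.02 and 0.00 over the tested genes. The 3 comparisons share groups and are not independent.

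Library by library, the epithelial genes were most often highest in Homo KO 1 on the TPM scale. Its sum over the 10 genes was 12.8 TPM, followed by 11.2 TPM in WT 2 and 8.46 TPM in Homo KO 2, while Homo KO 3 had the lowest sum, 4.12 TPM. The Hete KO sums were 6.02, 6.43 and 6.37 TPM, and the other WT sums 6.74 and 7.47 TPM. Homo KO 1 had the highest TPM of the 9 libraries for 6 of the 10 genes (Epcam, Cdh1, Krt5, Krt14, Krt7 and Elf5). For Krt14 this was 1 count. Krt7 was not highest there by CPM: its 4.85 CPM lay below WT 1 (5.68), WT 2 (5.01) and all Hete KO libraries (5.15 to 5.77). On coding transcripts alone, Krt7 had 1.47 TPM in Homo KO 1 and 1.63 TPM in WT 1. Elf5 was at 6.57 CPM in Homo KO 1 and 6.17 CPM in WT 2. Its main model, Elf5-204, had 2.70 TPM in Homo KO 1 and 2.74 TPM in WT 2. Over the 78 genes with counts in the member, junction, keratinocyte, mammary and basal lists Homo KO 1 was highest by TPM for 24, against 12.6% of the 25436 genes with counts. This was the library with the fewest counts, 20843427, and Homo KO 2 had 21612379. Genes with counts in Homo KO 1 and 2 and in no other library were Krt5, Cldn4 (3 and 1 counts) and Serpinb5 (3 and 2), or 3 of the 78, against 0.531% of the genes with counts.

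The following companions of Epcam in these 2 libraries were chosen after their values were seen. Elf3, an ETS factor of epithelia, had 18 and 2 counts in Homo KO 1 and 2, against at most 5 elsewhere. Ltf, the lactoferrin gene of secretory epithelium and neutrophils, had 18 and 13, against at most 5 elsewhere. Marveld3, of tight junctions, had 28 and 6, against at most 6 elsewhere, and was called higher in Homo KO than in WT by DESeq2. It failed edgeR's filter and was not tested there. Elf3 and Marveld3 belong to the list of epithelial junction and identity genes, of which others were higher in WT 2 and WT 3. Cldn3 had 5 and 3 counts in Homo KO 1 and 2, against 20 and 18 in WT 2 and WT 3. Perp had 7 and 4, against 88 and 65. The list summed to 43.8 TPM in Homo KO 1, below the 44.8 TPM of WT 2. Its 31.04 TPM in Homo KO 2 lay below all WT and Hete KO libraries, the lowest of which had 31.9 TPM. The milk protein gene Csn3 had 39 counts in Homo KO 1 and 20 in Homo KO 2, but 31 in WT 3 and 23 in WT 2. The milk genes Wap and Lalba and the basal keratin Krt17 had 0 counts in both. The summed level of the 18 mammary luminal and milk genes, of which 17 had counts, was 29.5 TPM in Homo KO 1 and 18.5 TPM in Homo KO 2, against 18.5 to 20.9 TPM in WT, 14.2 to 16.1 TPM in Hete KO and 9.86 TPM in Homo KO 3. The 16 skin keratinocyte genes summed to 24.1 and 20.5 TPM in Homo KO 1 and 2 and to 19.97 TPM in Homo KO 3. Their sums were 35.03 to 38.8 TPM in WT and 16.4 to 25.6 TPM in Hete KO, so every WT library lay above every KO library. The part of mammary or skin RNA in the levels of Epcam and Cdh1 was not tested.

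Among all keratins the members were not the leading ones. The files hold 54 keratin genes, of which 25 had no count, 9 had counts in all libraries and 5 had a mean of at least 1 TPM. These 5 were Krt80 (17.3 TPM), Krt79 (12.4), Krt222 (3.36), Krt7 (1.95) and Krt36 (1.09). Krt80 was measured in every library, up to 25.4 TPM in Homo KO 1. Krt79, a keratin of the hair follicle canal and sebaceous duct, lay between 5.15 and 22.6 TPM, while Krt1 and Krt2 of the differentiated epidermis had 2 counts and 1 count in all. Krt80, Krt222, Krt36, Krt1 and Krt2 were chosen after their values were seen.

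The wider epithelial lists had no gene past the threshold in the edgeR fit of all 9 libraries with the filter on low counts. Other settings called Oxtr, Krt79, Aldh1a3 and Perp, whose values are given with these genes. By DESeq2, 3.35% of the 18924 genes with an adjusted p were called in Homo KO against WT and 9.77% of 16474 in Hete KO against WT. An unadjusted p under 0.05 by edgeR was reached by 16.4, 21.9 and 5.44% of all tested genes in Homo KO against WT, Hete KO against WT and Homo KO against Hete KO. Of 29 further genes of epithelial junction and identity, 18 were tested, with 2 under an unadjusted p of 0.05 in Homo KO against WT, 4 in Hete KO against WT and 0 in Homo KO against Hete KO. Their median log2 fold changes were -0.01, -0.44 and 0.29. DESeq2 called Marveld3 higher and Perp lower in Homo KO than in WT, and Perp and Spint2 lower in Hete KO. The most abundant were St14, the membrane protease matriptase (mean 7.25 TPM, 5.45 to 9.02), Spint2, its inhibitor (6.85 TPM, 2.89 to 12.3), Grhl1, a grainyhead factor (5.41 TPM, 3.78 to 7.99), and Ehf, an ETS factor (3.64 TPM, 1.97 to 5.04), all well above Epcam and Cdh1. Of 16 skin keratinocyte genes, 7 were tested, with 3, 3 and 0 under an unadjusted p of 0.05 and medians of -0.03, -0.59 and 0.05. DESeq2 called Krt79 lower in both KO groups than in WT, and Dsg1a lower and Krt10 higher in Hete KO. Sbsn, Sfn and Krtdap followed Krt79 in level, with means of 4.87, 4.22 and 1.07 TPM. Of 18 mammary luminal and milk genes, 9 were tested, with 1, 1 and 0 under that p and medians of 0.07, -0.04 and 0.13. Aldh1a3 (6.76 TPM), Prlr, the prolactin receptor (4.55), Plet1 (1.38) and Csn3 (1.35) led it. Of 8 basal and myoepithelial genes, 5 were tested, with 1 in each comparison under that p and medians of -0.32, -0.16 and -0.27. They were led by Oxtr (119 TPM), the hemidesmosome integrin Itgb4 (5.74), the basal factor Trp63 (2.41) and Col17a1 (0.670).

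Lists for hair follicle, sebaceous and mesothelial cells gave no call by edgeR or DESeq2, with 1 sebaceous gene under an unadjusted p of 0.05 in Hete KO against WT, and 1 mesothelial gene in each KO group against WT. Of 16 hair follicle genes 4 were tested, with medians of 0.29, 0.72 and -0.27 in Homo KO against WT, Hete KO against WT and Homo KO against Hete KO. Msx2 (0.655 TPM), Krt35 (0.621), S100a3 (0.578) and Padi3 (0.240) were the highest. Of 6 sebaceous genes 5 were tested, with medians of 0.19, 0.64 and -0.45, and the wax synthase Awat2 stood at 1.97 TPM, between Scd3 (2.54) and Far2 (1.79). Of 7 mesothelial genes 2 were tested, and Wt1 (2.26 TPM) was the only one with a mean above 1 TPM. The mesothelial gene Msln, at most 0.172 TPM, was near 0. All 10 liver genes were tested: in Homo KO against WT all 10, and in Hete KO against WT 9, were under an unadjusted p of 0.05, with medians of -4.84 and -5.30. edgeR called 0 of them, and DESeq2 called 2 and 3, all lower than in WT.

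Among the leading genes of these lists, Oxtr, Krt79 and Aldh1a3 came close to edgeR's threshold in Hete KO against WT. Oxtr, the oxytocin receptor of myoepithelium that fat cells also express, was at 730, 619 and 605 CPM in the WT libraries, 205, 47.0 and 121 CPM in those of Hete KO and 239, 167 and 134 CPM in Homo KO. No KO library reached a WT library, which held for 12.1% of tested genes in Hete KO and 11.2% in Homo KO. Its log2 fold change was -2.39 (SE 0.440, adjusted p = 0.0556) in Hete KO and -1.85 (SE 0.432, adjusted p = 0.162) in Homo KO. Krt79 was at 9.97 ± 1.43 CPM in WT, 3.79 ± 1.58 CPM in Hete KO and 3.94 ± 0.532 CPM in Homo KO (SD, n = 3). Its log2 fold changes of -1.39 and -1.34 had adjusted p of 0.0606 and 0.154 by edgeR. Aldh1a3, a retinaldehyde dehydrogenase of luminal progenitors, was at 8.73, 21.5 and 17.6 CPM in the WT libraries, and at 4.65 ± 0.755 CPM in Hete KO and 7.16 ± 2.35 CPM in Homo KO (SD, n = 3). Its high values were those of the liver-rich WT 2 and WT 3, and WT 1 lay below the 9.87 CPM of Homo KO 1. The log2 fold changes of -1.77 and -1.16 had adjusted p of 0.0591 and 0.197 by edgeR. Without WT 2 and WT 3, which leaves only WT 1 in its group, they became -0.90 and -0.29. The part of liver RNA was not tested. None of the 3 passed in the edgeR fit of all 9 libraries with the filter on low counts. Other edgeR settings put them past the threshold in Hete KO against WT. With no filter the adjusted p was 0.0305 for Oxtr, 0.0449 for Krt79 and 0.0352 for Aldh1a3, and without Hete KO 1 it was 0.0126, 0.0124 and 0.0375. Without WT 1 edgeR gave an adjusted p of 0.0492 for Krt79 and 0.0147 for Aldh1a3, and with the replicate number as a block 0.0447 for Oxtr. In Homo KO against WT, edgeR on only these 2 groups gave 0.0466 for Oxtr. DESeq2 put all 3 past the threshold in both comparisons, with adjusted p of 0.000106 and 0.0108 for Oxtr, 0.000602 and 0.00317 for Krt79, and 2.87e-05 and 0.0253 for Aldh1a3. These were the lowest values over the alternatives, and the highest were 0.360 and 0.542 for Oxtr, 0.430 and 0.542 for Krt79, and 0.461 and 0.852 for Aldh1a3.

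Perp and Krt10 were chosen after their values were seen. Perp, a desmosome protein and p53 target, had 21, 88 and 65 counts in the WT libraries, 7, 8 and 11 in those of Hete KO and 7, 4 and 3 in Homo KO, again highest in WT 2 and WT 3. As for Oxtr, no library of either KO group reached the lowest WT value. WT 2 and WT 3 are also the liver-rich libraries, and the part of liver RNA was not tested. Its log2 fold changes were -2.57 and -3.39, with adjusted p of 0.0694 and 0.154 by edgeR and of 0.00553 and 0.00109 by DESeq2, and up to 0.672 and 0.559 in other alternatives. Without WT 1, edgeR called Perp in both, with adjusted p of 0.0370 and 0.0306. Krt10, a keratin of suprabasal epidermis, went the other way: 7, 6 and 11 counts in the WT libraries, 29, 21 and 23 in those of Hete KO and 22, 22 and 21 in Homo KO. All KO libraries lay above WT, as 12.6 and 10.9% of tested genes did. Its log2 fold changes were 1.71 and 1.63, with adjusted p of 0.0729 and 0.172 by edgeR and of 0.0470 and 0.115 by DESeq2, and up to 0.443 and 0.542 in other alternatives. Both KO comparisons share the WT libraries.

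**Figure D5:**
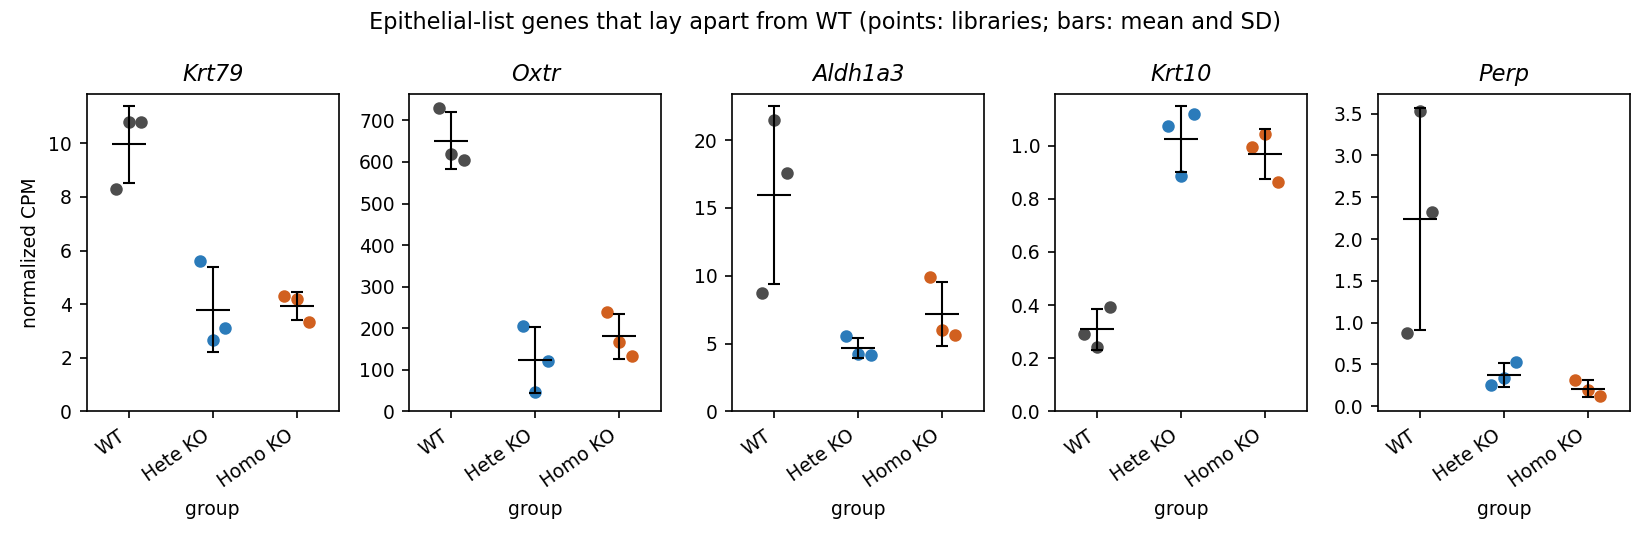
Normalized CPM of Krt79, Oxtr, Aldh1a3, Krt10 and Perp in each library (points) by group (x axis), with the mean and SD of 3 libraries as bars. WT lies above the KO groups for Krt79, Oxtr and Perp and below them for Krt10, while for Aldh1a3 Homo KO 1 reaches the lowest WT library.

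Across the 9 libraries, the patterns of Epcam and Krt18 were compared with those of 14152 tested genes with a mean of at least 1 CPM, as Pearson's r of log2 CPM and as a description only. Most like Epcam were Slc16a13 (r = 0.92), Scnn1a, a subunit of the epithelial sodium channel (0.92), Oas2 (0.92), Kit (0.91) and Mmrn2 (0.91). Without Homo KO 1 and 2, r was between 0.66 and 0.89 for these genes. Epcam then had at most 5 counts in a library, in WT 2, so these values rest on few counts. Most like Krt18 were Ugt1a5 (0.98), Eme2 (0.96), Sema4c (0.93), Grk5 (0.92) and Rgs16 (0.92). Without WT 2 and Homo KO 1, r was between 0.85 and 0.96. These genes were picked as the extremes of many, and the points share libraries, depth and other tissues' RNA.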

How the data were processed

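Whole subcutaneous fat was sequenced in 9 libraries, grouped by the genotype in the labels. Per the file headers, the deposited files give estimated counts (expected counts) per transcript, not normalized, and TPM, which the authors' quantifier scaled to effective length and library total. Per the submitters' processing notes the genome build was mm10. The quantifier is not given in the sources used here. Counts and TPM were summed per gene with GENCODE M21 (98.4% of 113193 transcripts matched, and the others, with 0.581 to 1.06% of the counts, were left out), and summed counts were rounded.

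Of 35071 genes, 17968 had enough counts for edgeR's filter and entered 1 fit of all libraries (edgeR 4.0.16 quasi-likelihood, TMM, two-sided, Benjamini-Hochberg over all tested genes, threshold 0.05, 6 residual degrees of freedom, prior count 0.125 for fold changes). CPM are TMM-normalized. DESeq2 1.42.0 and limma 3.58.1 on log2 TPM with pseudocounts of 0.5 and 0.1 were alternatives, run in R 4.3.3. The script was tested on simulated data. Python 3.11.15 was used for values, sequences and figures.

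The members and lists were chosen with earlier results of these data known. Genes named are the 10 members, from each list every gene past the threshold and up to 4 with the highest mean TPM, and the 5 genes most correlated with Epcam, Krt14 and Krt18 among those with a mean of at least 1 CPM, leaving out predicted genes and pseudogenes. Krt14, with 1 count, was too low for this and was not compared. Muscle and sex-linked genes served as a check of the libraries. Xist and Krt85 were not analysed here.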

Additional observations from a re-analysis of the deposited data

How the results depend on the processing

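No member was called in any comparison under any of the 19 alternatives, which were other normalization, filters, groups, tests, a replicate block, each library left out, and 2 settings chosen after seeing the data (without the muscle-rich WT 1, WT 2 and Hete KO 2, and without the liver-rich WT 2 and WT 3). The count of all genes called did depend on the processing, and the cause was not tested. In Homo KO against WT it went from 0 to 634 with DESeq2, 1 with no filter, 7 with only the 2 groups compared, 41 without the muscle-rich and 2 without the liver-rich libraries, and 0 to 153 with each library left out (153 without WT 1, 2 without Hete KO 2, 1 without WT 2). In Hete KO against WT it went from 75 to 1610 with DESeq2, 258 with no filter, 0 with only the 2 groups compared and with limma at either pseudocount, 11 without the muscle-rich and 1 without the liver-rich libraries, and 0 to 958 with each library left out (958 without Hete KO 1, 431 without WT 1, 26 without WT 3 and at most 2 without any other library). In Homo KO against Hete KO DESeq2 called 4 genes against 0.

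Whether the replicate numbers of the labels pair the libraries was not settled. Deviations from group means correlated between -0.07 and 0.46 for same-numbered libraries. For differently numbered libraries they correlated between -0.45 and 0.25, so the ranges overlapped, and the highest value was that of WT 3 and Hete KO 3. With the replicate number as a block, Hete KO against WT gave 248 calls against 75, the other comparisons stayed at 0, Krt19 in Hete KO against WT became 0.23, and the adjusted p of Oxtr in that comparison became 0.0447.

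Signs turned only in member fold changes near 0 or resting on few libraries. With limma at pseudocounts of 0.5 and 0.1, Krt19 in Hete KO against WT became 0.15 and 0.41, Elf5 in Homo KO against WT 0.22 and 0.24, and Elf5 in Homo KO against Hete KO 0.027 and 0.023. Without the muscle-rich libraries, Homo KO against WT became -0.94 for Krt19, 0.22 for Krt7 and 0.42 for Elf5. Without the liver-rich libraries, Krt18 became 7.60 in Homo KO and 3.79 in Hete KO against a WT group at 0 counts, and in Hete KO against WT Krt19 became 0.22, Krt7 -0.045 and Elf5 -0.093. With each library left out, Homo KO against WT ranged from -1.38 to 0.29 for Krt18, -0.43 to 1.23 for Krt19 and -0.30 to 0.10 for Elf5. Hete KO against WT ranged from -0.60 to 1.06 for Krt19 and -0.15 to 0.19 for Elf5, and Homo KO against Hete KO from -0.065 to 0.51 for Krt19 and -0.34 to 0.046 for Elf5.

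For Epcam, Krt5, Krt8, Krt14 and Cldn7, which failed the filter on low counts, no difference between groups was detectable beyond the spread of libraries. That spread exceeded counting error for Krt8 in WT (0, 39 and 27 counts) and for Epcam in Homo KO (30, 15 and 0 counts).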
